A study of Mus musculus with 6 samples.

Results

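Type I interferon-stimulated genes are the genes that cells switch on when interferon alpha or beta reaches them, and 38 of them were followed here in whole mouse spleen. All probe sets whose platform symbol equals the symbol of a listed gene were taken, which gave 63 of the 45101 probe sets on the array and 35 of the 18193 genes with a probe set of their own. Isg15 and Trex1 lay only on probe sets that carry several symbols, and Ifi44 had no probe set under that symbol, so these 3 genes have no value here. Oasl2 had 1 probe set, which lay under the filter on low values, so 34 genes were tested.

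The study asked how perfluorooctane sulfonate (PFOS), a persistent fluorinated surfactant, acts on the spleen. The mice were of the Balb/c strain and 6 to 8 weeks old, and the labels state that they were female and kept free of pathogens. The control group of 3 was untreated, and no vehicle is named for it. The PFOS group of 3 received 10 mg per kg body weight per day by stomach tube for 3 weeks. Each sample was read on its own Affymetrix Mouse430_2 array, and the deposited values are log2 RMA values, in which a difference of 1 is a 2-fold change. The labels call the samples biological replicates without saying whether a sample is 1 mouse or a pool, so p-values measure only the spread between these samples, which may be technical.

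Interferon alpha and beta bind a receptor of the chains Ifnar1 and Ifnar2, which activates the kinases Jak1 and Tyk2. These kinases activate the factor ISGF3, of which Stat2 and Irf9 are parts, and ISGF3 binds the interferon-stimulated response element (ISRE) in the promoters of its targets. The targets include sensors of viral nucleic acid, enzymes that destroy or edit RNA, and proteins that block single steps of viral growth. In a healthy spleen a low basal level of this signal is maintained, and plasmacytoid dendritic cells are a specialised source of interferon alpha.

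The arrays of a group correlated at 0.9985 to 0.9991 over the 13101 genes tested and those of different groups at 0.969 to 0.970. Xist, which is expressed from the inactive X chromosome, lay between 3.71 and 5.86 over its 3 probe sets, while the Y-linked gene Eif2s3y reached 9.91 at 1 of its 2 probe sets and lay at or above 9.62 there on all 6 arrays, which goes against the label female. Markers of other cells moved between the groups. Of 12 red cell precursor markers and 14 proliferation genes tested, every one was called lower in PFOS, with medians of -1.55 and -1.40 on the log2 scale. Hepatocyte markers were lower in 10 of 10 cases, and their summed linear level was 6853 to 6953 in control and 444 to 486 in PFOS. Called higher were 13 of 13 T cell markers (median 0.46), 10 of 11 B cell markers (0.47), 10 of 12 red pulp macrophage markers (0.32) and 7 of 8 dendritic cell markers (0.35). NK cell markers were split, with 4 of 8 called higher and 2 lower (median 0.06). Over all genes tested 40.6% were called higher and 26.0% lower. No marker is measured as 0 on such arrays. The part of these shifts in the results below was not tested, and in whole tissue fewer cells of a type cannot be told apart from less RNA per cell.

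Interferon-stimulated genes did not move as a block. Limma called 29 of the 34 tested genes at an adjusted p under 0.05, in a comparison that called 66.6% of all genes tested. It called 12 of the 34 tested genes higher in PFOS, which is 35.3% beside 40.6% of all genes tested, and 17 lower, which is 50% beside 26.0% of all genes tested. Their median change was -0.06 on the log2 scale, against 0.05 over all genes tested. Falls ran from 0.07 to 1.11 in size with a median of 0.29, and rises from 0.10 to 0.42 with a median of 0.19. Over all genes called, the median change was -0.27 for those lower and 0.22 for those higher. At least 1.5-fold changes were called for 0 genes in the upward direction (1.02% of all genes tested) and for 2 genes in the downward direction (5.98%), which were Isg20 and Cmpk2. These counts rest on the probe set with the highest mean of each gene. Other probe sets of Rsad2 fell 1.63-fold and 2.10-fold, another of Herc6 fell 1.53-fold and another of Samhd1 rose 1.64-fold. The groups did not overlap for 30 of the 34, with PFOS above control in 12 (43.2% of all genes tested) and below in 18 (27.8%).

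These directions depend on how the arrays are scaled. Bacterial transcripts that are added to the RNA before labelling averaged 6.29 in control and 5.81 in PFOS over 27 probe sets, a difference of -0.48, while those added before hybridization differed by -0.0015. Scaling the arrays on the labelling transcripts adds 0.48 to every change and moves the median of all genes to 0.53. The counts then became 29 higher and 2 lower, beside 90.9% higher and 6.05% lower over all genes tested. The only genes below 0 were Isg20, Cmpk2, Rsad2 and Usp18. Scaling on 42 ribosomal protein genes adds -0.08 to every change. The counts then became 7 higher and 21 lower, beside 26.4% higher and 37.4% lower over all genes tested. Under the deposited values, centring on the median, quantile normalization and both of these scalings, 7 genes were called higher every time and 2 lower every time. The share of all genes called the same way every time was not computed. The place of a gene among all genes does not move with an added constant. It is given below for some genes as a percentile of change, where 0 is the largest fall and 100 the largest rise. Genes called higher in the deposited values ran from percentile 59.9 (Parp9) to 95.7 (Ddx60). Those called lower ran from 2.5 (Isg20) to 29.9 (Dhx58).

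**Figure D1:**
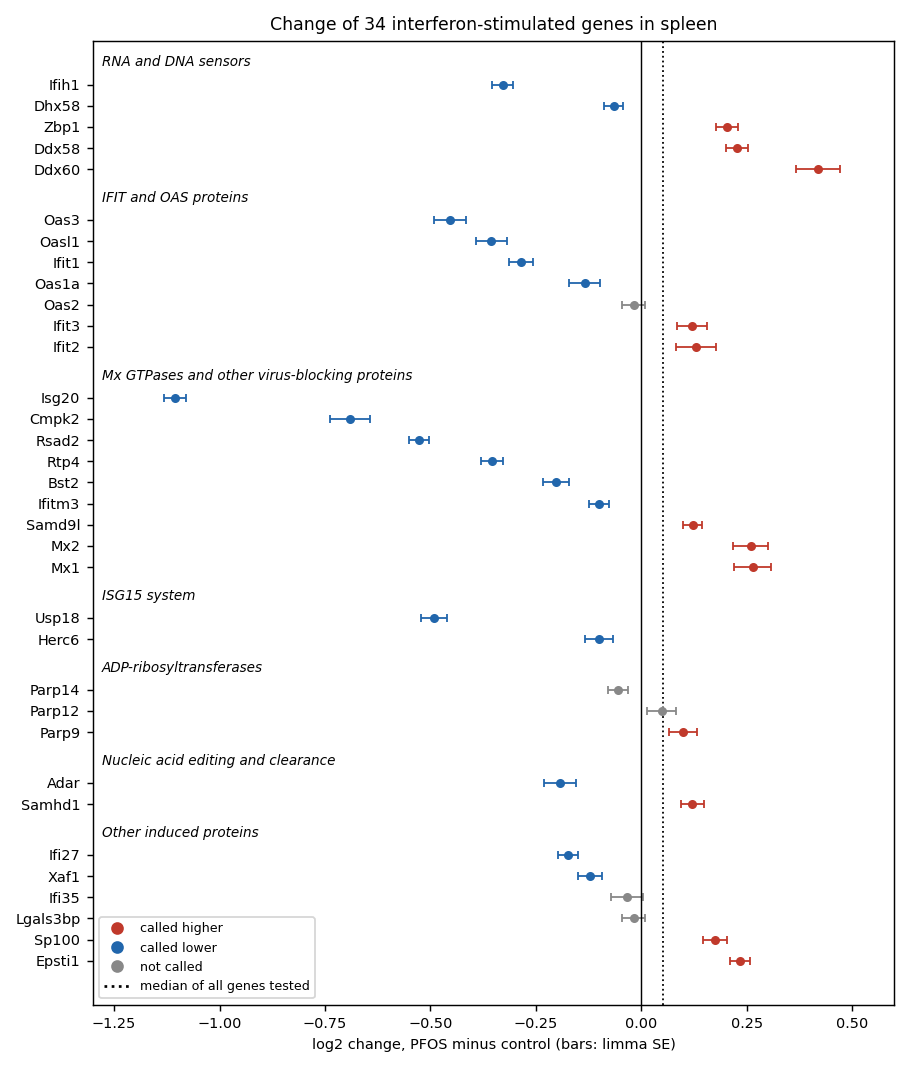
Log2 change (PFOS minus control) of the 34 tested genes, by role, with limma's standard error as bars and n = 3 arrays per group; the dotted line is the median of all genes tested (0.05). Points run from -1.11 for Isg20 to 0.42 for Ddx60, and both directions occur among the sensors, the IFIT and OAS proteins and the virus-blocking proteins.

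The ISRE is the sequence through which ISGF3 acts, and its core was searched in RefSeq promoters of assembly GRCm38.p6 as the letters GAAANNGAAA on both strands, from 250 bases before to 50 after the start. Promoters were listed for 28 of the 38 genes. The core was found in 11 of the 28 genes with any promoter counted (39.3%), against 3.99% of all 27025 genes in the table and 3.44% of all 32851 promoters of this length. Among the tested genes with a promoter it was found in 7 of 13 that were called lower (53.8%), in 3 of 8 called higher (37.5%) and in 0 of 3 not called. Over all genes tested with a promoter the shares were 3.16% of those called lower, 4.24% of those called higher and 3.30% of those not called. The element of the interferon gamma factor (GAS), searched as TTCNNNGAA, was found in 8 of the 28 genes (28.6%) against 9.55% of all genes in the table. One ISRE match overlapped a GAS match in the promoters of Bst2 and of Ifitm3.

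The 250 bases before the start of 4 genes are shown because they carry the core and went different ways: Rsad2 and Ifit1 were called lower, Ifit3 and Ddx60 higher. Capitals mark the ISRE core, read as TTTCNNTTTC where it lies on the other strand. The stretches are chr12:26456453-26456702 on the minus strand for Rsad2, chr19:34640639-34640888 on the plus strand for Ifit1, chr19:34583279-34583528 on the plus strand for Ifit3 and chr8:61927837-61928086 on the plus strand for Ddx60, each given 5′ to 3′ in the direction of its gene.
Rsad2: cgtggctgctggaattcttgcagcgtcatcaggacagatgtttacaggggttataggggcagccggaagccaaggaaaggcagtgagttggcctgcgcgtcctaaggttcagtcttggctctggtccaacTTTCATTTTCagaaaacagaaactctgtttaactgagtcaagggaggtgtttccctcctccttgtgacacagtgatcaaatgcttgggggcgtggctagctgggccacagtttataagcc
Ifit1: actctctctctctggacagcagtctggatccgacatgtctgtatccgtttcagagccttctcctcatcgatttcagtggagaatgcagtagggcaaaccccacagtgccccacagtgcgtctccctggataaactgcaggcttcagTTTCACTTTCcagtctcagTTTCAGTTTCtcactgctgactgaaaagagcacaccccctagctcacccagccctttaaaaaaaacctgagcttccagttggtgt
Ifit3: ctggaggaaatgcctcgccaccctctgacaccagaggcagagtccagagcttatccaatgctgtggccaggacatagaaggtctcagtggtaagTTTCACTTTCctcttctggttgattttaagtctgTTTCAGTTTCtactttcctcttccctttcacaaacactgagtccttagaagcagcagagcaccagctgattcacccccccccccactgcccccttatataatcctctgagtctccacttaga
Ddx60: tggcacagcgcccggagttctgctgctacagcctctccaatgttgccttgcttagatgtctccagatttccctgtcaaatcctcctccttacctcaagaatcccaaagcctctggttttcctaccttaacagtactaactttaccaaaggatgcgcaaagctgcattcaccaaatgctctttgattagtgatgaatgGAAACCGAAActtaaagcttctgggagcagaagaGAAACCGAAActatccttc
Rsad2 has 1 match that ends 110 bases before the start. Ifit1 has 2, at 94 and 75 bases, and Ifit3 has 2, at 146 and 112 bases, and in Rsad2, Ifit1 and Ifit3 every match is read from the strand opposite to the gene. Ddx60 has 2 on the strand of the gene, at 43 and 9 bases. A match is a stretch of letters and not a measured binding site.

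Sensors of viral nucleic acid were split, with 3 called higher and 2 lower. Ddx60, a helicase linked to RIG-I signalling, rose most of the tested genes at the probe set that stands for each gene. Other probe sets of Samhd1 (0.71 and 0.49) and of Epsti1 (0.44) rose more. Ddx60 lay near the filter floor, at 5.96, 5.89 and 5.99 in control and at 6.46, 6.38 and 6.26 in PFOS. All 3 PFOS arrays lay above the control arrays, and the change was 0.42 ± 0.05 (SE; limma adjusted p = 0.000307), at percentile 95.7. Its second probe set, under the filter floor of 5.62, differed by -0.15 and was not called. Ddx58 encodes RIG-I, which recognises RNA with a triphosphate end, and it lay at 8.96, 8.99 and 8.99 in control and at 9.19, 9.24 and 9.19 in PFOS (change 0.23 ± 0.03, limma adjusted p = 0.000201). All 3 of its probe sets were called higher. Zbp1, a sensor of nucleic acid in the left-handed Z form, rose by 0.20 ± 0.03, and its second probe set differed by 0.06 without a call.

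Ifih1 encodes MDA5, which recognises long double-stranded RNA, and it went the other way from RIG-I. It lay at 8.80, 8.83 and 8.84 in control and at 8.52, 8.47 and 8.49 in PFOS, a change of -0.33 ± 0.03 (limma adjusted p = 2.09e-05), at percentile 10.5. The PFOS arrays lay below all control arrays, but scaling on the labelling transcripts turned the change to 0.15. The difference between the changes of Ddx58 and Ifih1 was 0.56 ± 0.03 (SE over arrays), and it is untouched by a constant added to an array. An exact two-sided permutation test over the 3 and 3 arrays gave p = 0.1, the smallest this design allows. Such differences were computed for 10 pairs of genes, chosen with their values known, with Benjamini-Hochberg adjusted p = 0.143 or more in each. Dhx58, which encodes the regulator LGP2, differed by -0.07 ± 0.02 (limma adjusted p = 0.035) and was not called when genes of low values were kept in the fit (adjusted p = 0.062) or without any 1 of the 6 arrays (0.052 to 0.110). Scaling on the labelling transcripts turned Dhx58 to 0.41.

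The IFIT and OAS families each held genes that fell and genes that did not. IFIT proteins bind viral RNA with a foreign cap structure. Ifit1 lay at 7.94, 7.97 and 7.97 in control and at 7.72, 7.63 and 7.68 in PFOS (change -0.29 ± 0.03, limma adjusted p = 9.66e-05), and all PFOS arrays were lower. Ifit3 lay at 7.71, 7.78 and 7.83 in control and at 7.88, 7.87 and 7.92 in PFOS (change 0.12 ± 0.04, limma adjusted p = 0.021), with no overlap. Both were higher when the arrays were scaled on the labelling transcripts, at 0.19 and 0.60, and Ifit3 lost its call when they were scaled on ribosomal protein genes (0.04). Ifit1 and Ifit3 lie 3 protein-coding genes apart and both carry ISRE cores in the promoters shown above, and the difference between their changes was 0.41 ± 0.04 (exact permutation p = 0.1, the smallest possible; adjusted p = 0.143 over 10 pairs). Ifit2, next to Ifit3, changed by 0.13 ± 0.05 (limma adjusted p = 0.044), and its adjusted p was 0.055 with replicate blocks. The call of Ifit2 held without control replicate 2 (adjusted p = 0.016) and was lost without any 1 of the other 5 arrays (0.070 to 0.107). Without control replicate 1 the change of Ifit2 was 0.08, and on the scale of ribosomal protein genes it was 0.05 without a call (adjusted p = 0.412). Ifit3 also lost its call without PFOS replicate 3 (adjusted p = 0.070).

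OAS proteins make 2′-5′ linked oligoadenylates, which activate the RNA-cutting enzyme RNase L. Oas3 lay at 7.25, 7.17 and 7.18 in control and at 6.73, 6.69 and 6.81 in PFOS, a change of -0.45 ± 0.04 (limma adjusted p = 3.33e-05) at percentile 7.7. Oas2, its neighbour on the chromosome, differed by -0.02 ± 0.03 (adjusted p = 0.584), and its arrays overlapped between the groups. The change of Oas2 exceeded that of Oas3 by 0.43 ± 0.04 (exact permutation p = 0.1, the smallest possible; adjusted p = 0.143). Oas1a, whose promoter holds 2 overlapping ISRE cores at 10 and 4 bases before the start, changed by -0.13 ± 0.04 (limma adjusted p = 0.014), and near-identical Oas1 copies may share its probes. Oasl1, an OAS-like protein without the synthetic activity that limits translation of Irf7, changed by -0.36 ± 0.04 (limma adjusted p = 0.000111). Scaling on the labelling transcripts turned Oas3 (0.02), Oas1a (0.34) and Oasl1 (0.12) upward. Oasl2 averaged 5.24 in control and 5.04 in PFOS under the filter floor, and its change of -0.20 ± 0.07 passed over all probe sets (limma adjusted p = 0.048).

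**Figure D2:**
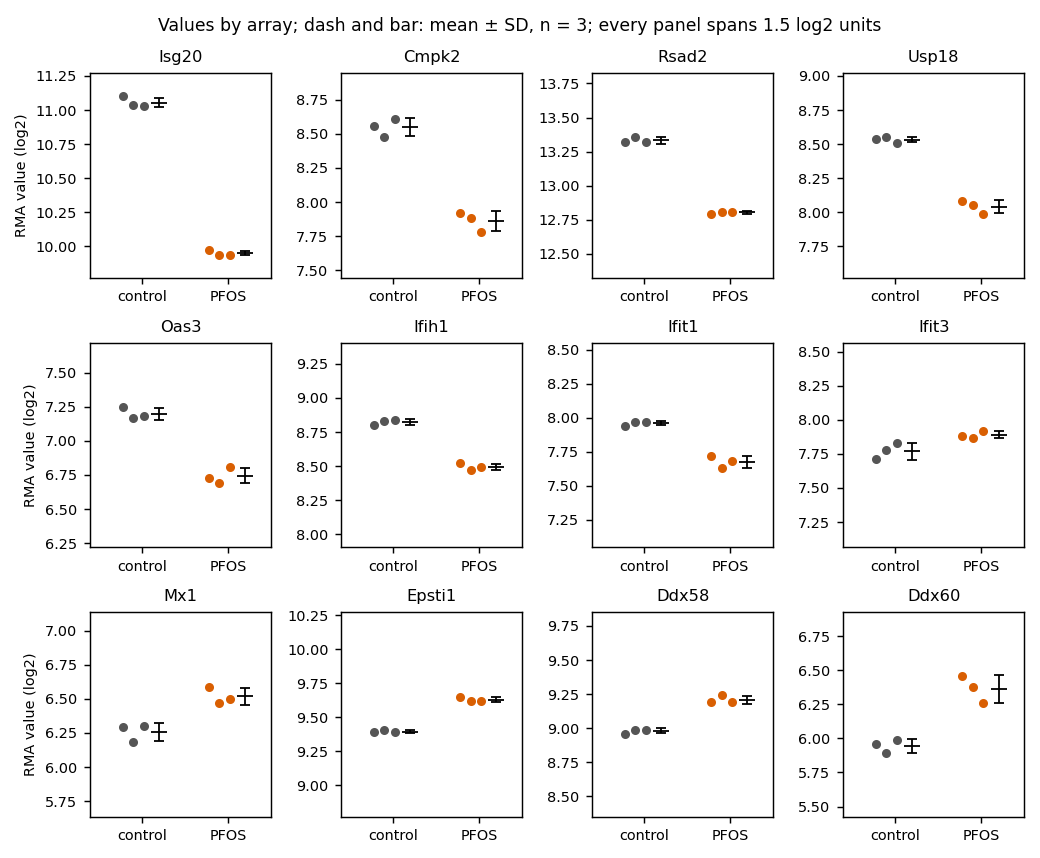
RMA value (log2) on each array for 12 genes, control in grey and PFOS in orange, with the mean ± SD of the 3 arrays beside them and 1.5 log2 units on every vertical axis. The first 7 genes are lower and the last 5 higher in PFOS, and the arrays of both groups do not overlap in any of the 12 panels. The 12 were picked from called genes without overlap, so the lack of overlap follows from the choice. Over all genes tested, 43.2% had PFOS above control and 27.8% below without overlap. Oas2, Parp12, Ifi35 and Lgals3bp, which overlapped, are not shown.

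The largest falls were among the virus-blocking proteins, of which 6 were called lower and 3 higher. Isg20, an exonuclease that degrades viral RNA, lay at 11.10, 11.04 and 11.03 in control and at 9.97, 9.94 and 9.94 in PFOS. That is a change of -1.11 ± 0.03, or 2.15-fold (limma adjusted p = 5.75e-08), at percentile 2.5. At the probe set that stands for each gene, Isg20 was the only 1 of the 34 with a called fall of at least 2-fold. Such a fall was called for 2.92% of all genes tested, and another probe set of Rsad2 also fell 2.10-fold. Isg20 remained lower at -0.63 with scaling on the labelling transcripts. None of its 3 listed promoters held the ISRE core.

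Cmpk2 and Rsad2 are neighbours on chromosome 12 that fell together. Cmpk2 encodes a mitochondrial nucleotide kinase and Rsad2 encodes viperin, a radical enzyme that makes a chain-ending nucleotide from CTP. Cmpk2 lay at 8.56, 8.48 and 8.61 in control and at 7.92, 7.88 and 7.78 in PFOS (change -0.69 ± 0.05, 1.61-fold, limma adjusted p = 1.20e-05). Rsad2 lay at 13.32, 13.36 and 13.32 in control and at 12.79, 12.81 and 12.81 in PFOS (change -0.53 ± 0.02, 1.44-fold, limma adjusted p = 1.73e-06). The PFOS arrays were below all control arrays in both, and the changes differed by 0.16 ± 0.07 with overlapping arrays (exact permutation p = 0.2, adjusted p = 0.25). The other probe sets of Rsad2 changed by -0.70 and -1.07, whereas the second probe set of Cmpk2 differed by 0.01 and was not called. Cmpk2 was still called lower when scaled on the labelling transcripts, at -0.215, and Rsad2 was then at -0.05 without a call.

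Rtp4, a chaperone of receptors that also binds viral RNA, lay at 8.95, 9.01 and 8.95 in control and at 8.62, 8.62 and 8.61 in PFOS (change -0.35 ± 0.03, limma adjusted p = 2.15e-05). Bst2, or tetherin, holds budding virus at the cell surface and is also a marker of plasmacytoid dendritic cells in the mouse, and it changed by -0.20 ± 0.03. Ifitm3, which blocks virus entry from endosomes, changed by -0.10 ± 0.02. The changes of Rtp4, Bst2 and Ifitm3 became 0.12, 0.27 and 0.38 with scaling on the labelling transcripts. Against these falls, Mx1 lay at 6.29, 6.18 and 6.30 in control and at 6.59, 6.47 and 6.50 in PFOS (change 0.26 ± 0.04, limma adjusted p = 0.0013). Mx2 rose by 0.26 ± 0.04 as well, and the changes of both Mx genes differed by 0.0051 ± 0.08 (exact permutation p = 1). The Mx proteins are GTPases that trap viral nucleocapsids, and many inbred mouse strains, Balb/c among them, carry defective Mx alleles. Samd9l, a restriction factor of poxviruses, rose by 0.12 ± 0.02, a call that was lost with scaling on ribosomal protein genes (0.04).

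Both tested genes of the list for the ISG15 system were called lower in the deposited values, and neither was when the arrays were scaled on the labelling transcripts. Ube2l6, which takes part in ISG15 attachment, is counted below in another list. ISG15 is a ubiquitin-like protein that Herc6 attaches to other proteins in the mouse and Usp18 removes, and Usp18 also shuts off the interferon receptor. Usp18 lay at 8.54, 8.55 and 8.51 in control and at 8.08, 8.05 and 7.99 in PFOS, a change of -0.49 ± 0.03 (limma adjusted p = 7.51e-06) at percentile 7.1. All PFOS arrays were below the control arrays, and the change was -0.02 on the scale of the labelling transcripts. Herc6 changed by -0.10 ± 0.03 at the probe set with the highest mean (limma adjusted p = 0.027), which was not called without control replicate 2 (adjusted p = 0.090) or PFOS replicate 1 (0.066). Its other 3 probe sets were called lower over all probe sets, at -0.61, -0.42 and -0.12. The labelling transcripts as scale turned Herc6 to 0.38 (limma adjusted p = 2.66e-06).

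ADP-ribosyltransferases barely differed. Parp9, which pairs with the ubiquitin ligase Dtx3l, changed by 0.10 ± 0.03 (limma adjusted p = 0.032), and the call was lost without control replicate 1 (adjusted p = 0.095), control replicate 2 (0.053), PFOS replicate 2 (0.099) or PFOS replicate 3 (0.102). Parp12 differed by 0.05 ± 0.03 and Parp14 by -0.06 ± 0.02, and neither was called (limma adjusted p = 0.245 and 0.068). Parp14 was called lower with the stricter filter (adjusted p = 0.046), with a trended, robust prior (0.040) and on the scale of ribosomal protein genes (-0.14), while its other probe set was called higher at 0.10. Parp9 was not called on the scale of ribosomal protein genes either (0.02, adjusted p = 0.655). All 3 were higher when the arrays were scaled on the labelling transcripts, with Parp9 at 0.58, Parp12 at 0.52 and Parp14 at 0.42.

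Nucleic acid editing and clearance showed 1 gene in each direction. Samhd1, which removes the deoxynucleotides that viruses need, lay at 10.95, 10.95 and 10.94 in control and at 11.02, 11.09 and 11.09 in PFOS (change 0.12 ± 0.03, limma adjusted p = 0.0061). Over all probe sets 4 of its 5 were called higher, with changes up to 0.71, and the other differed by -0.09. The call at the main probe set was lost with scaling on ribosomal protein genes (0.04). Adar, which edits adenosine to inosine in double-stranded RNA, changed by -0.19 ± 0.04 (limma adjusted p = 0.0032) and by 0.28 with scaling on the labelling transcripts. Of its 3 probe sets 2 were called lower, at -0.22 and -0.19, and 1 higher, at 0.20.

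The remaining induced proteins were split evenly, with 2 called higher, 2 lower and 2 not called. Epsti1 lay at 9.39, 9.41 and 9.39 in control and at 9.65, 9.62 and 9.62 in PFOS (change 0.23 ± 0.02, limma adjusted p = 8.55e-05), and 3 of its 4 probe sets were called higher. Sp100, a component of nuclear bodies, changed by 0.17 ± 0.03, but its other probe set changed by -0.35, and the mean of both was -0.09. Ifi27, a small membrane protein of mitochondria and the nuclear envelope, changed by -0.17 ± 0.02, and Xaf1, a promoter of cell death, by -0.12 ± 0.03. The second probe set of Xaf1, under the filter floor, changed by 0.33. Scaling on the labelling transcripts turned Ifi27 to 0.30 and Xaf1 to 0.35. Ifi35 (-0.03 ± 0.04) and Lgals3bp (-0.02 ± 0.03) overlapped between the groups, but another probe set of Ifi35 did not overlap and was called higher at 0.10 (adjusted p = 0.032 over all probe sets).

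**Figure D3:**
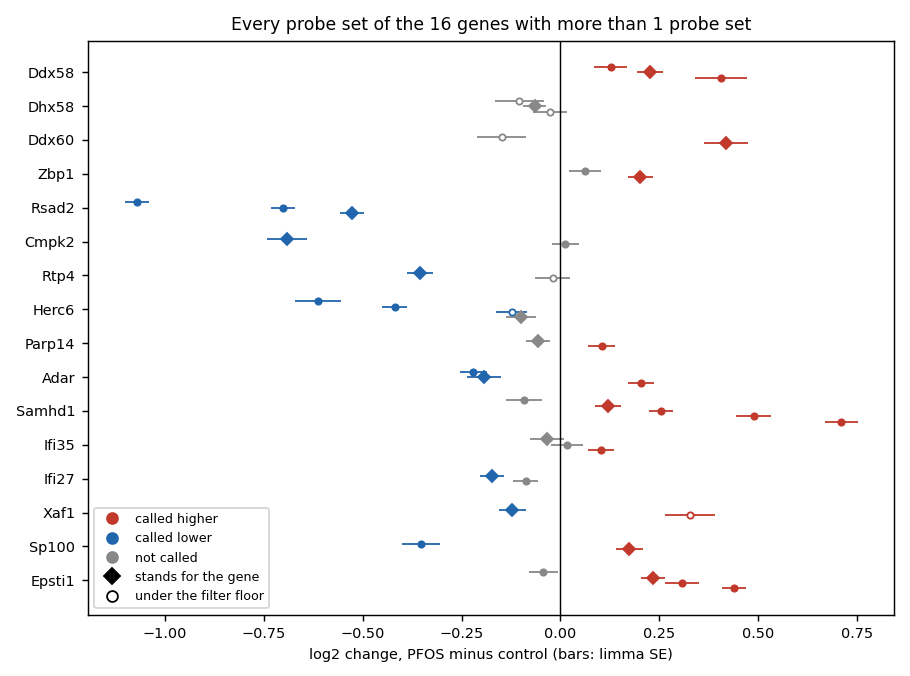
Log2 change of every probe set of the 16 genes with more than 1 probe set, with limma's standard error from the fit over all 45037 probe sets that are not array controls; diamonds stand for the gene, and open points lie under the filter floor. Calls in both directions occur in 3 genes, which are Adar, Sp100 and Xaf1.

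Probe sets of a gene differed in size and at times in direction. Of the 63 probe sets 44 were called, beside 49.5% of all probe sets that are not array controls, and the calls were 21 higher (30.2% of all) and 23 lower (19.3%). Of the 16 genes with several probe sets, Ddx58 and Rsad2 had every probe set called the same way, 10 had some called 1 way and the rest not called, 3 had calls both ways, and Dhx58 had none called. In this fit Dhx58 (adjusted p = 0.105), Ifit2 (0.068), Herc6 (0.058) and Parp9 (0.065) did not pass at the probe set that stands for the gene.

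**Figure D4:**
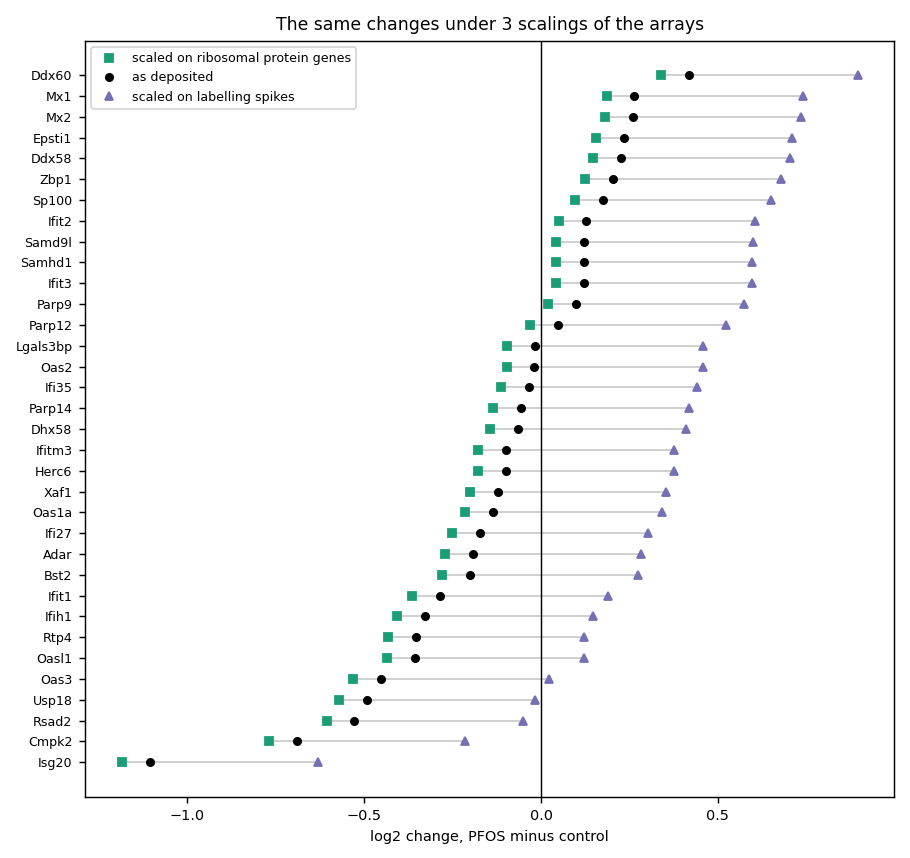
Log2 change of the 34 genes in the deposited values (circles), with arrays scaled on ribosomal protein genes (squares) and on labelling transcripts (triangles). Each scaling moves all genes by 1 constant, so the order of the genes is the same, and the lowest 4 genes are below 0 in all 3.

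Genes upstream of the interferon response were measured on the same arrays. In the deposited values the counts of each list stand beside 40.6% higher and 26.0% lower over all genes tested. On the scale of the labelling transcripts these shares are 90.9% and 6.05%, and on that of ribosomal protein genes 26.4% and 37.4%. Of the interferon genes themselves 5 of 16 listed were tested, and 2 were called higher and 1 lower. Ifnz, an interferon zeta (limitin) gene, lay at 7.43, 7.55 and 7.31 in control and at 8.00, 8.04 and 7.98 in PFOS (change 0.58 ± 0.06, limma adjusted p = 9.07e-05). Ifnb1, interferon beta, differed by 0.15 ± 0.04 (adjusted p = 0.0083), with a control mean of 5.70 that lies next to the floor of 5.62. Ifna9 changed by -0.40 ± 0.11, from 5.83 to 5.42, and near-identical interferon alpha genes may share its probes. Scaling on the labelling transcripts gave 4 of the 5 higher and 0 lower.

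Of the receptor and its signal chain 4 of 6 tested genes were higher and 1 lower. Irf9, the DNA-binding part of ISGF3, lay at 9.47, 9.35 and 9.34 in control and at 8.99, 9.01 and 9.01 in PFOS (change -0.38 ± 0.04, limma adjusted p = 8.87e-05). Stat2, its partner, lay at 6.83, 6.78 and 6.80 in control and at 6.94, 6.98 and 6.95 in PFOS (change 0.15 ± 0.03), and the kinases Jak1 and Tyk2 changed by 0.27 ± 0.02 and 0.18 ± 0.04. The arrays of Irf9, Stat2, Jak1 and Tyk2 did not overlap between the groups. Scaled on the labelling transcripts, 5 of the 6 were higher and 0 lower (90.9% and 6.05% of all genes tested). Scaled on ribosomal protein genes 2 were higher and 2 lower (26.4% and 37.4%).

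Of 14 sensors and adaptors that induce interferon 8 were called higher and 4 lower (median 0.26). Tlr3, the endosomal receptor of double-stranded RNA, lay at 7.13, 7.09 and 7.04 in control and at 8.00, 7.73 and 7.81 in PFOS (change 0.76 ± 0.07, limma adjusted p = 4.11e-05). The kinase Ikbke rose by 0.47 ± 0.03, the adaptor Sting1 by 0.46 ± 0.05 and the transcription factor Irf5 by 0.44 ± 0.02. Irf7, the factor that amplifies interferon alpha, was singled out after its value was seen: it changed by -0.16 ± 0.03 (limma adjusted p = 0.0024). Larger falls in this list were called for Trim25 (-0.42 ± 0.03), Cgas (-0.22 ± 0.04) and Mavs (-0.18 ± 0.03). The counts of the list were 13 higher and 0 lower when scaled on the labelling transcripts, where 90.9% and 6.05% of all genes were.

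Of 11 genes listed as inhibitors of the signal 8 were higher and 3 lower (median 0.13). Among the 3 is Ube2l6, an enzyme of ISG15 attachment and not an inhibitor, at -0.19 ± 0.04 (limma adjusted p = 0.0034). Socs3, a feedback inhibitor of cytokine receptors, rose by 0.51 ± 0.05, the phosphatase Ptpn6 by 0.31 ± 0.03 and Pias3 by 0.24 ± 0.03, while the ubiquitin protease Usp25 changed by -0.27 ± 0.05. All 11 were higher when scaled on the labelling transcripts, as were 90.9% of all genes tested. With ribosomal protein genes 5 were higher and 3 lower (26.4% and 37.4% of all genes tested).

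Other interferon-induced genes leaned the other way from the genes followed here. Of 37 tested, 21 were higher and 8 lower. Their median was 0.12 against -0.06, and the difference between the lists was not tested. Nt5c3, a nucleotidase of pyrimidines, lay at 10.91, 10.92 and 10.92 in control and at 9.85, 9.83 and 9.86 in PFOS (change -1.07 ± 0.02, limma adjusted p = 2.82e-08). Eif2ak2, the RNA-activated kinase PKR, changed by -0.79 ± 0.04. Its 2 other probe sets were not called lower: 1 was called higher at 0.13, and 1 differed by -0.20 without a call. Slfn2, a regulator of lymphocyte quiescence, rose by 0.53 ± 0.03 and the nuclear body protein Sp110 by 0.42 ± 0.03. The labelling transcripts as scale gave 34 higher (90.9% of all genes tested) and 2 lower (6.05%), which were Nt5c3 and Eif2ak2.

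The interferon gamma system, which acts on the GAS element, had 11 of 19 tested genes higher and 4 lower (median 0.16). Irgm2, a GTPase that acts on the vacuoles of parasites, lay at 9.61, 9.58 and 9.59 in control and at 8.76, 8.78 and 8.80 in PFOS (change -0.82 ± 0.02, limma adjusted p = 1.29e-07). Irf1 rose by 0.40 ± 0.02, the receptor chain Ifngr2 by 0.37 ± 0.03 and Irf8 by 0.36 ± 0.02. On the scale of the labelling transcripts 18 were higher (90.9% of all genes tested) and 1, Irgm2, was lower (6.05%). Ifng itself lay under the filter floor, at 4.27 in control and 4.18 in PFOS.

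**Figure D5:**
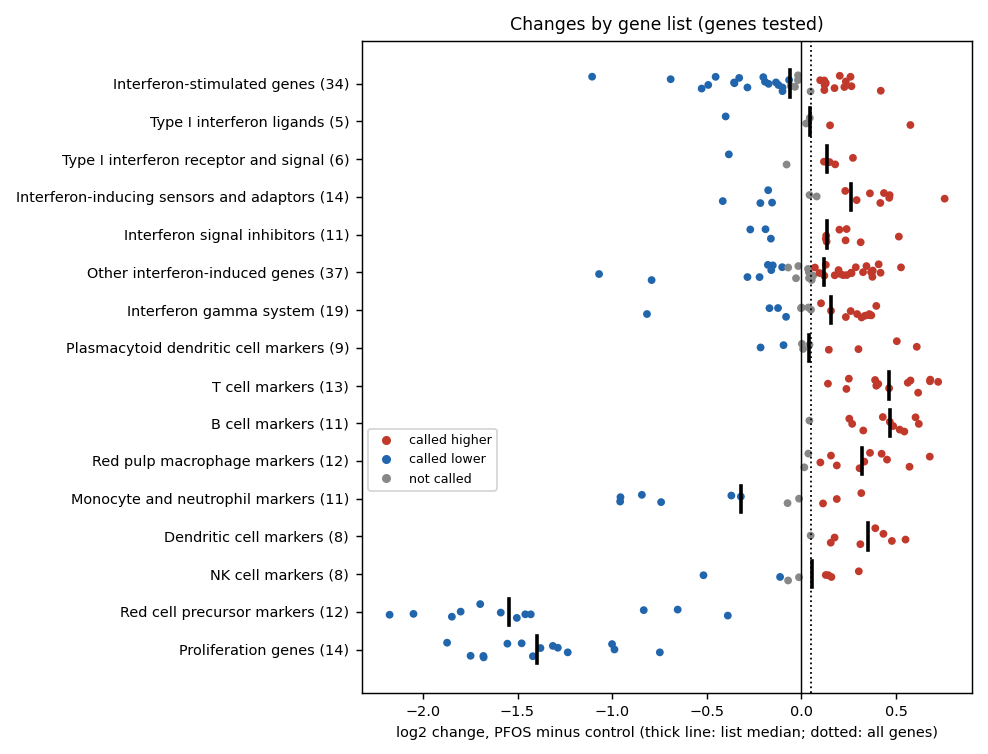
Log2 change of every tested gene in the interferon lists and the cell marker lists except hepatocyte markers (number tested in brackets), colored by call. The list median is a thick line and the median of all genes (0.05) is dotted. Hepatocyte markers, of which all 10 tested were called lower with a median of -3.67, are not shown. Red cell precursor and proliferation genes run up to -0.39 at most, T cell markers start at 0.14, and the interferon lists spread on both sides of 0.

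Markers of cells that make or answer interferon were also measured. Of 9 plasmacytoid dendritic cell markers tested 4 were higher and 2 lower (median 0.04), near the 40.6% and 26.0% of all genes tested, and their summed linear level was 4722 to 4881 in control and 5322 to 5426 in PFOS. Siglech, a surface lectin that defines them, differed by 0.04 ± 0.03 (limma adjusted p = 0.296). Pacsin1 and Tcf4 rose by 0.61 ± 0.03 and 0.50 ± 0.03, Ly6d by 0.30 ± 0.04, and Cox6a2 changed by -0.22 ± 0.05. Of 11 monocyte and neutrophil markers 6 were lower and 3 higher (median -0.32), and their summed level was 6122 to 6223 in control and 4515 to 4617 in PFOS. Scaled on the labelling transcripts, 4 were lower and 7 higher, beside 6.05% lower and 90.9% higher over all genes tested. Their median was then 0.16, against 0.53 over all genes tested. The sums overlapped on that scale, at 5190 to 5291 in control and 5260 to 5547 in PFOS. The summed level of the 34 interferon-stimulated genes was 30572 to 30963 in control and 26069 to 26193 in PFOS, and the order turned on the scale of the labelling transcripts, with 25857 to 26247 in control and 30321 to 31321 in PFOS. That sum weights each gene by its signal, so Rsad2 is a large part of it, and the part of any cell type in these shifts was not tested.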

How the data were processed

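Whole spleen RNA of 3 control and 3 PFOS samples was measured, with 1 Affymetrix Mouse430_2 array per sample. The deposited values are log2 probe set summaries made by the authors with RMA, per the submitters' processing notes; RMA equalizes the arrays, so changes are relative to the whole array. The RMA version was not given in the sources used here. Genes were named from the platform annotation: of 45101 probe sets 64 were array controls, 34945 had 1 symbol, 932 several and 9160 none.

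Probe sets with 1 symbol and a mean over the 6 arrays at or above the 40th percentile (a log2 value of 5.62) were kept, and the one with the highest mean stood for its gene, which gave 13101 genes. Limma 3.58.1 in R 4.3.3 (lmFit, eBayes) compared PFOS with control in a two-sided test. P-values were adjusted by Benjamini-Hochberg across the 13101 genes, and a gene was called where the adjusted p was under 0.05. A second fit took all 45037 non-control probe sets without the filter. Changes carry limma's standard error (SE), and the number of arrays limits the precision. The members and lists were chosen with earlier results of these data known. All listed genes were named, and of the other lists up to 4 called genes with the largest change. The fit was tested on simulated data. The pairs of genes were tested by exact permutation over arrays. Alternatives covered replicate blocks, the filter, scaling, weights for arrays, a trended prior, other rules for probe sets, stricter thresholds and leaving out each array.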

Additional observations from a re-analysis of the deposited data

How the results depend on the processing

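Leaving out 1 array gave 9 to 11 genes higher and 15 to 16 lower of the 34, with a median of -0.07 to -0.05, and 4824 to 5209 higher and 3112 to 3313 lower over all genes, with a median of 0.046 to 0.051. Oas2, which was not called, ranged from -0.0296 to 0.0031. The replicate numbers were not taken as pairs in the main fit. Deviations of same-numbered arrays correlated at 0.324, 0.138 and 0.097, all positive. Control 1 and control 2 correlated best with their own number, while control 3 correlated best with PFOS 2 (0.128). Control 1 correlated at -0.226 and -0.177 with PFOS 2 and PFOS 3, and PFOS 1 at -0.201 and -0.181 with control 2 and control 3. A structure shared by replicate number was not tested further. With replicate blocks 11 genes were called higher and 17 lower.

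With scaling on the labelling transcripts 29 genes were higher and 2 lower (median 0.42), and over all genes 11912 and 792 (median 0.53), so 93.8% of all calls were higher against 61% in the deposited values. The genes whose sign turned there were Ifih1 (0.15), Dhx58 (0.41), Ifit1 (0.19), Oas1a (0.34), Oas2 (0.46), Oas3 (0.0225), Oasl1 (0.12), Bst2 (0.27), Ifitm3 (0.38), Rtp4 (0.12), Herc6 (0.38), Parp14 (0.42), Adar (0.28), Ifi35 (0.44), Ifi27 (0.30), Xaf1 (0.35) and Lgals3bp (0.46). With scaling on ribosomal protein genes 7 were higher and 21 lower (median -0.14), and Parp12 turned to -0.0308. Over all genes 3464 were then higher and 4899 lower, with a median of -0.0281 and 41.4% of calls higher. Both scalings move calls by their own construction, a constant added to every change.

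Quantile normalization turned the uncalled Oas2 (0.0098) and Lgals3bp (0.012), with a median of 0.058 over all genes; centring on the median gave 0.042. The mean over probe sets gave 0.042 and turned Parp14 (0.0238), Ifi35 (0.0286) and Sp100 (-0.089). Without _s_at, _x_at and _a_at probe sets the median of the genes was -0.0375 and Ifi35 was 0.10; with a filter at the 60th percentile it was -0.0828. Requiring a change of at least 1.5-fold at the probe set that stands for the gene left 0 genes higher and 2 lower, and 134 and 783 over all genes. The causes were otherwise not tested. Ddx60, Ifnb1 and Ifna9 lie near the filter floor.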
